A study of Homo sapiens with 9 samples.

Results

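Sprouty and SPRED proteins are inhibitors of the path that runs from receptor tyrosine kinases through RAS, RAF and MEK to the kinase ERK, and 6 of their genes (SPRY1, SPRY2, SPRY4, SPRED1, SPRED2 and SPRED3) were followed in a human melanoma cell line given inhibitors of that path. The 6 genes were taken by symbol from the array's gene annotation, by a rule that uses no measured value, although earlier results of these data were known. Each had 1 row that names it alone. They are 6 of 17047 genes with such a row, and all 6 were among the 12785 genes tested after the dimmest 25% had been left out. SPRY3 was not analysed here.

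The cells were A375P, an established melanoma line grown in serum-containing medium. They received the solvent DMSO, PD184352 at 1 µM or PLX4720 at 0.4 µM, and RNA was taken after 2, 6 or 24 h. PD184352 inhibits the MEK kinases and PLX4720 is a RAF kinase inhibitor. By its title, the series sought direct transcriptional targets of a mutant RAF kinase and of MEK. There were 9 columns of values, 1 for each treatment and time, and each is called an array below, although the design text speaks of triplicates and a column may be their average. No treatment and time had a second column, so the deposited values give no spread between cultures. All cultures are 1 cell line, and each inhibitor was given at 1 dose. The median intensity of an array lay between 98.96 and 102.4, and 0 pairs of arrays held identical values. Of 8 melanocyte marker genes listed, 6 had a row, and 5 of these were above the dimmest 25% of genes. By mean level, PMEL was at percentile 98.9 of all genes with a row, SOX10 at 97, MITF at 94.9 and S100B at 70.2. MLANA was at 33.7 and TYRP1 at 17.9, so these pigment cell markers were dim. The summed intensity of the 6 ranged from 3979 to 4311 with DMSO and from 3850 to 5668 with inhibitor. Lists hold different genes, so sums are not compared between lists. For 2 immune markers the sums ranged from 47.3 to 49.7 and from 48.1 to 52.5, and both immune markers were among the dimmest 25% of genes. Other lists were not all dim: 1 of 2 keratinocyte, 2 of 3 fibroblast and 2 of 3 endothelial markers were above the dimmest 25%. The keratinocyte sum was 242 to 283 with DMSO and 250.2 to 290.1 with inhibitor, the fibroblast sum 269 to 288 and 279 to 303, and the endothelial sum 327 to 366 and 300.4 to 440.2. Their part in the results was not tested.

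Sprouty proteins act inside the cell on the adaptor and RAF steps below the receptors. SPRED proteins carry an EVH1 domain and bring neurofibromin (NF1), which switches RAS off, to the membrane. Several of these genes are themselves transcribed when ERK is active, which closes a negative feedback loop. The level of each gene is given below as log2(intensity + 1). A change is a difference of such levels, which understates the change of dim genes. Levels are compared within a gene only, since rows on an array differ in how brightly they respond.

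SPRY4, an intracellular inhibitor of receptor tyrosine kinase signalling, was lower on every inhibitor array than on any DMSO array. Its log2 level with DMSO was 10.33, 10.87 and 10.90 at 2, 6 and 24 h. With PD184352 the level was 8.40, 6.51 and 6.48 at these times, and with PLX4720 it was 8.38, 6.96 and 7.21. Expressed as intensity, 26.2% of the DMSO value was left after 2 h of PD184352 and 25.8% after 2 h of PLX4720. After 6 h the share was 4.82% with PD184352 and 6.62% with PLX4720, and after 24 h it was 4.62% and 7.69%. Both compounds thus gave nearly the same SPRY4 level at 2 h, and PD184352 the lower one at 6 h and 24 h.

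The SPRY4 gene lies on the minus strand of chromosome 5, and its 5′ side is at base 142325021 in GRCh38.p14. Its only start site in the RefSeq promoter table is an inner one, whose window of 300 bases held none of the motifs searched and is not printed. The antisense gene SPRY4-AS1 starts 272 bases beyond it on the plus strand, so that both genes run away from each other. The SPRY4-AS1 window, chr5:142325043-142325342, begins 22 bases beyond the SPRY4 gene and covers the rest of the space between them. The window is shown because of a repeated motif in it. Capitals mark TGAATGG, which begins one of the octamers bound by the repressor CIC (TGAATGAA and TGAATGGA). This motif was chosen after the sequence had been read.
SPRY4-AS1 window: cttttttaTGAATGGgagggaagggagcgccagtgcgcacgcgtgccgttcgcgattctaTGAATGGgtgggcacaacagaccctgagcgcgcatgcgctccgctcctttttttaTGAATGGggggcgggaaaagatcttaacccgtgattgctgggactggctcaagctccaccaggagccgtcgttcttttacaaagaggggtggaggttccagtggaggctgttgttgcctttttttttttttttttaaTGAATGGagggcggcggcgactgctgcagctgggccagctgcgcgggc
Both strands were searched, and the window holds TGAATGG 4 times, all in the printed direction. In 1 of these it is part of the octamer TGAATGGA. Of all 35116 RefSeq windows of this length, 3.20% hold TGAATGG at least once and 2 windows hold it 4 times or more. This window is among those 2 and the motif was chosen from its sequence, so these shares are no test of the motif. TGAATGGA is in 1.03% of windows. A match is a description of the letters and shows no binding. With inhibitor, the level of CIC itself changed by −0.20 at 2 h (SE 0.10) and by 0.17 at 6 h (SE 0.10), and neither was called. At 24 h it was 0.36 higher (SE 0.10, adjusted p = 0.0228 by limma), when 12.5% of all genes were called higher. Any part of CIC in the SPRY4 change was not tested.

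SPRY2, which binds the adaptor GRB2 and the ubiquitin ligase CBL, was low on every inhibitor array as well. The DMSO arrays read 10.22, 10.34 and 10.02 on the log2 scale at 2, 6 and 24 h. PD184352 arrays read 7.73, 6.67 and 6.59 at the same times. PLX4720 arrays read 7.83, 7.50 and 8.21. The PLX4720 level at 24 h was thus the highest of the 6 and still 1.80 below the lowest DMSO array. The intensity left at 2 h was 17.7% with PD184352 and 19.0% with PLX4720. At 24 h it was 9.22% and 28.6%, the widest gap between the compounds among the 6 genes.

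SPRY1, which limits receptor signalling in kidney development, moved much less. Its level was 7.87, 7.77 and 7.74 with DMSO at 2, 6 and 24 h. It was 7.58, 7.30 and 7.40 with PD184352 and 7.50, 7.39 and 7.33 with PLX4720. All 6 inhibitor arrays lay below the lowest DMSO array, by at least 0.16. Between 72.2% and 81.9% of the DMSO intensity was left.

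SPRED1, the NF1 partner that is mutated in Legius syndrome, did not differ from DMSO at 2 h beyond the error of the test and was low later. The level was 10.27, 10.44 and 10.42 with DMSO, 10.26, 9.28 and 8.88 with PD184352, and 10.28, 9.39 and 9.42 with PLX4720. At 2 h both inhibitor arrays were thus within 0.02 of the DMSO array. At 24 h the intensity left was 34.2% with PD184352 and 49.7% with PLX4720.

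SPRED2, which like SPRED1 restrains RAS signalling, read below DMSO at 2 h and lowest at 6 h with both compounds. The 2 h change did not pass in the test by time given below. The SPRED2 level was 9.42, 9.34 and 9.32 with DMSO, 8.88, 8.02 and 8.33 with PD184352, and 9.04, 8.23 and 8.74 with PLX4720. From 6 h to 24 h it went up by 0.31 with PD184352 and by 0.51 with PLX4720, and all 6 inhibitor arrays stayed below the lowest DMSO array. SPRED3, the member found mainly in brain, spanned 0.25 over all 9 arrays. It read 7.55, 7.54 and 7.59 with DMSO, 7.45, 7.34 and 7.50 with PD184352, and 7.43, 7.35 and 7.58 with PLX4720. The groups of SPRED3 overlapped.

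**Figure D1:**
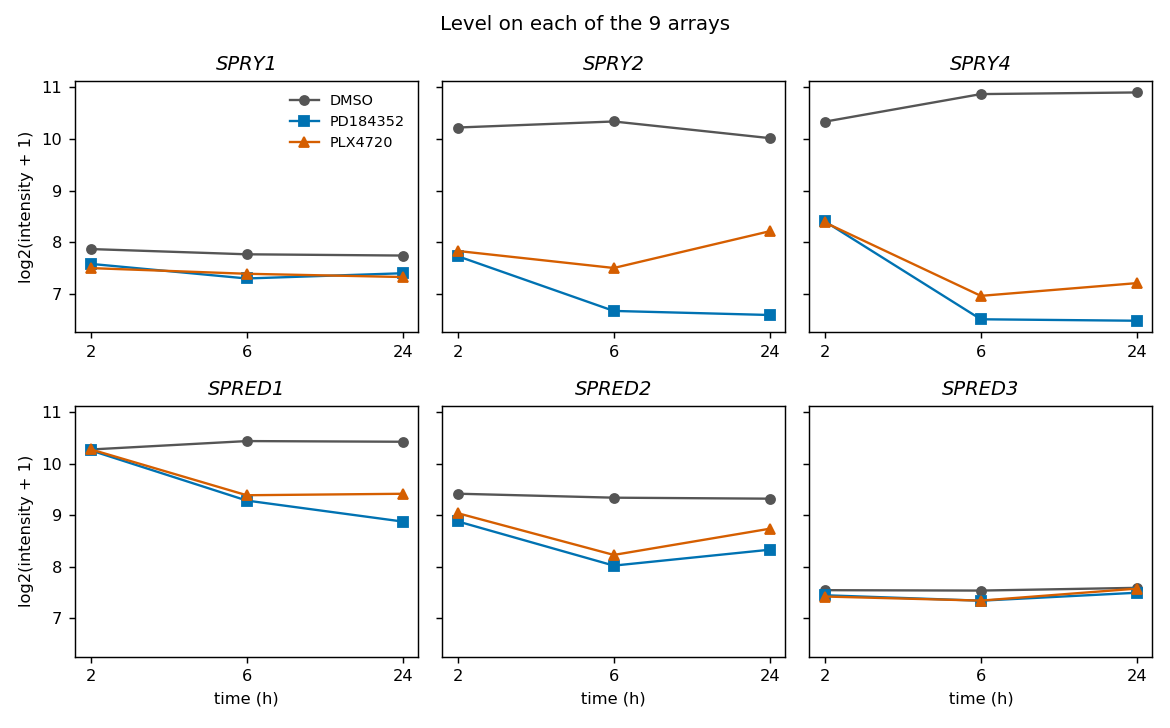
Level of each gene on each array, as log2(intensity + 1) against time in hours, with 1 line for DMSO, PD184352 and PLX4720 and 1 array per point. SPRY2 and SPRY4 lie far below DMSO from 2 h on, SPRED1 leaves the DMSO line only after 2 h, and SPRED3 stays within 0.25 over all arrays.

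In 4 of the 6 genes (SPRY1, SPRY2, SPRY4 and SPRED2) every inhibitor array was below every DMSO array, against 5.23% of all genes tested. In bulk RNA, a lower level in each cell and loss of the transcript from some cells cannot be told apart. The deposited table holds no detection call, so whether the lowest levels of SPRY2 and SPRY4 are above the background of their rows was not tested.

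The RefSeq windows of the other 3 genes that fell by more than 1 on the log2 scale at 6 h are shown for the binding motif of ETS factors, transcription factors that ERK activates. Each is the 250 bases before the outermost start site, written along the gene's strand in GRCh38.p14: SPRY2 at chr13:80341127-80341376 (minus), SPRED1 at chr15:38252586-38252835 (plus) and SPRED2 at chr2:65432600-65432849 (minus). Capitals mark the PEA3-type motif AGGAAG, or its reverse CTTCCT.
SPRY2 upstream: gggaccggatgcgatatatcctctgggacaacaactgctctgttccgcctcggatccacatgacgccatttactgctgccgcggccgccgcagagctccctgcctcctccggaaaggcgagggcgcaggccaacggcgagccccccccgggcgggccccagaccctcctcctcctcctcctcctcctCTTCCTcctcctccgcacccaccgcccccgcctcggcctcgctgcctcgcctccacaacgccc
SPRED1 upstream: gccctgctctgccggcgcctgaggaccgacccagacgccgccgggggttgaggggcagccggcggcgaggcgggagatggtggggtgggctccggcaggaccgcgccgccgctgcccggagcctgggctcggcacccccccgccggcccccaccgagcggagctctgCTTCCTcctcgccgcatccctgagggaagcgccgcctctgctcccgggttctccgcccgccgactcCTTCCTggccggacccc
SPRED2 upstream: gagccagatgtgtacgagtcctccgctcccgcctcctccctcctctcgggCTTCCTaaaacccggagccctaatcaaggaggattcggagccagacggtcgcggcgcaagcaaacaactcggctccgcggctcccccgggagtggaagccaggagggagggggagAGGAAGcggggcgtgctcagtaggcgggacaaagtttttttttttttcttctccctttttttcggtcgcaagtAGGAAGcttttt
The motif occurs 1 time in SPRY2, 2 times in SPRED1 and 3 times in SPRED2. It is common, being in 33.6% of the 35116 windows of 300 bases. CGGAAG, another ETS motif, is in 19.5% of windows. It is in none of the 3 printed stretches, but 1 time in the last 50 bases of the full SPRED2 window. The AP-1 motif TGANTCA is in 7.71% of windows, in none of these 3 and 2 times in the inner SPRED2 window. The outermost windows of SPRY1 and SPRED3, whose levels moved little, hold none of the motifs searched, but their inner windows do. The inner window of SPRY4, which fell most, holds none. The printed windows were picked by the fall, so a link of motif and fall was not tested. The inner SPRY1 window holds AGGAAG 1 time and CGGAAG 1 time. The inner SPRED3 window holds AGGAAG 1 time, the AP-1 motif TGANTCA 1 time and the CIC octamer TGAATGAA 1 time, and this octamer is in 1.65% of all windows.

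The change with both inhibitors was tested at each time with limma, as the mean of the 2 inhibitor arrays minus the DMSO array of that time. The only arrays that repeat each other in this test are those of the 2 compounds, so its error is how far the compounds disagree within a time. This error is pooled over the 3 times and drawn toward that of all genes, so a gene has the same SE at each time. Such p-values do not measure the spread between cultures, and both compounds share each DMSO array. At 2 h SPRY4 fell by 1.94 on the log2 scale (SE 0.25, adjusted p = 0.0270), and was the 1 member of 6 to pass, against 0.0704% of all genes called lower. Without either 2 h inhibitor array SPRY4 did not pass (adjusted p = 0.366 without PD184352 and 0.260 without PLX4720). SPRY2 had the larger change, −2.44 (SE 0.51, adjusted p = 0.187), and did not pass. Its error holds the gap between the compounds at later times, −1.62 at 24 h beside −0.10 at 2 h. SPRY2 and SPRED2 passed when the PD184352 or the PLX4720 array of 24 h was left out. Both cases are the same fit at 2 h, since a 24 h inhibitor array left alone adds nothing to the error. In that fit limma drew the error mostly from all genes together, with 29.9 prior and 2 residual degrees of freedom. The full fit had 7.04 and 3. Passing there is thus not a measure of the spread of SPRY2 itself. In the full fit SPRED2 was at −0.46 (SE 0.16, adjusted p = 0.521) and did not pass. SPRY1 was at −0.33 (SE 0.09) and SPRED3 at −0.11 (SE 0.08). SPRED1 was at −0.01, with a 95% interval from −0.39 to 0.37.

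At 6 h, 5 of 6 members fell, against 2.74% of all genes called lower. SPRY4 changed by −4.13 (SE 0.25, adjusted p = 2.04e-05), the lowest of all 12785 values. SPRY2 changed by −3.25 (SE 0.51, adjusted p = 0.00654), SPRED2 by −1.21 (SE 0.16, adjusted p = 0.00235) and SPRED1 by −1.10 (SE 0.17, adjusted p = 0.00648). SPRY1 fell by 0.42 (SE 0.09, adjusted p = 0.0350), a call that was lost without any 1 of the inhibitor arrays of 2 h or 6 h (adjusted p between 0.0547 and 0.164). SPRED3 was at −0.20 (SE 0.08, adjusted p = 0.307). The median change of the 6 was −1.16, beside −0.02 over all genes.

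At 24 h the same 5 members were lower, against 19.2% of all genes, so that a fall was then common. SPRY4 was again lowest of all genes, at −4.06 (SE 0.25, adjusted p = 4.36e-06). SPRY2 was at −2.61 (SE 0.51, adjusted p = 0.00293), SPRED1 at −1.28 (SE 0.17, adjusted p = 0.000310), SPRED2 at −0.785 (SE 0.16, adjusted p = 0.00331) and SPRY1 at −0.38 (SE 0.09, adjusted p = 0.00924). SPRED3 stood at −0.055, with a 95% interval from −0.24 to 0.13. The median of the 6 was −1.03, beside −0.01 over all genes. With limma's trended and robust variance, SPRY2 did not pass at 6 h (adjusted p = 0.244) or 24 h (adjusted p = 0.129), nor SPRY4 at 2 h (adjusted p = 0.222).

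**Figure D2:**
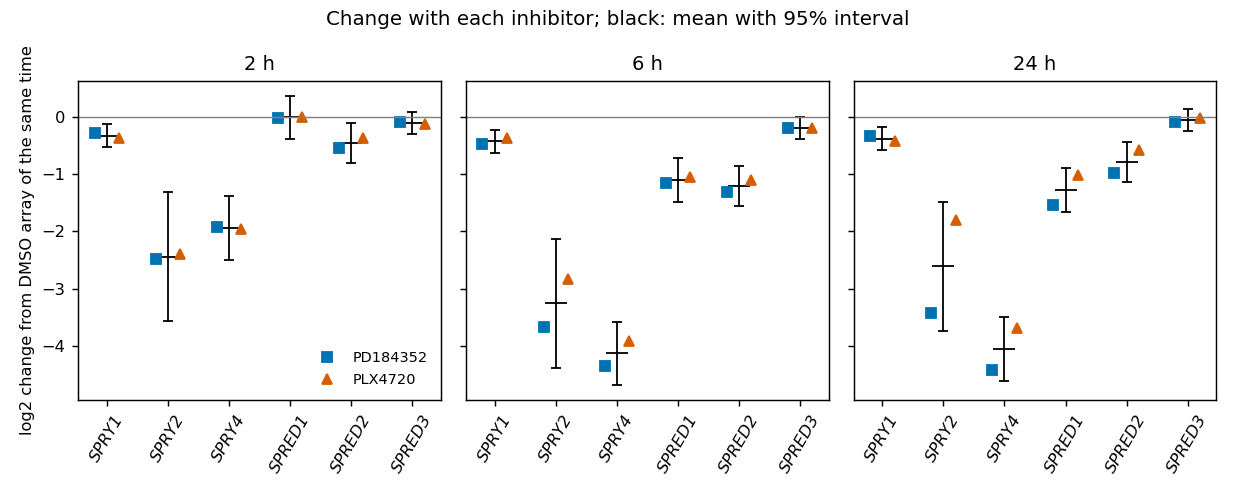
Log2 change against the time-matched DMSO array for each gene at 2, 6 and 24 h, with squares for PD184352, triangles for PLX4720 and a black bar for their mean with its 95% interval. SPRY4 at −4.13 and SPRY2 at −3.25 reach furthest down at 6 h, and the symbols of SPRY2 stand furthest apart at 24 h.

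**Figure D3:**
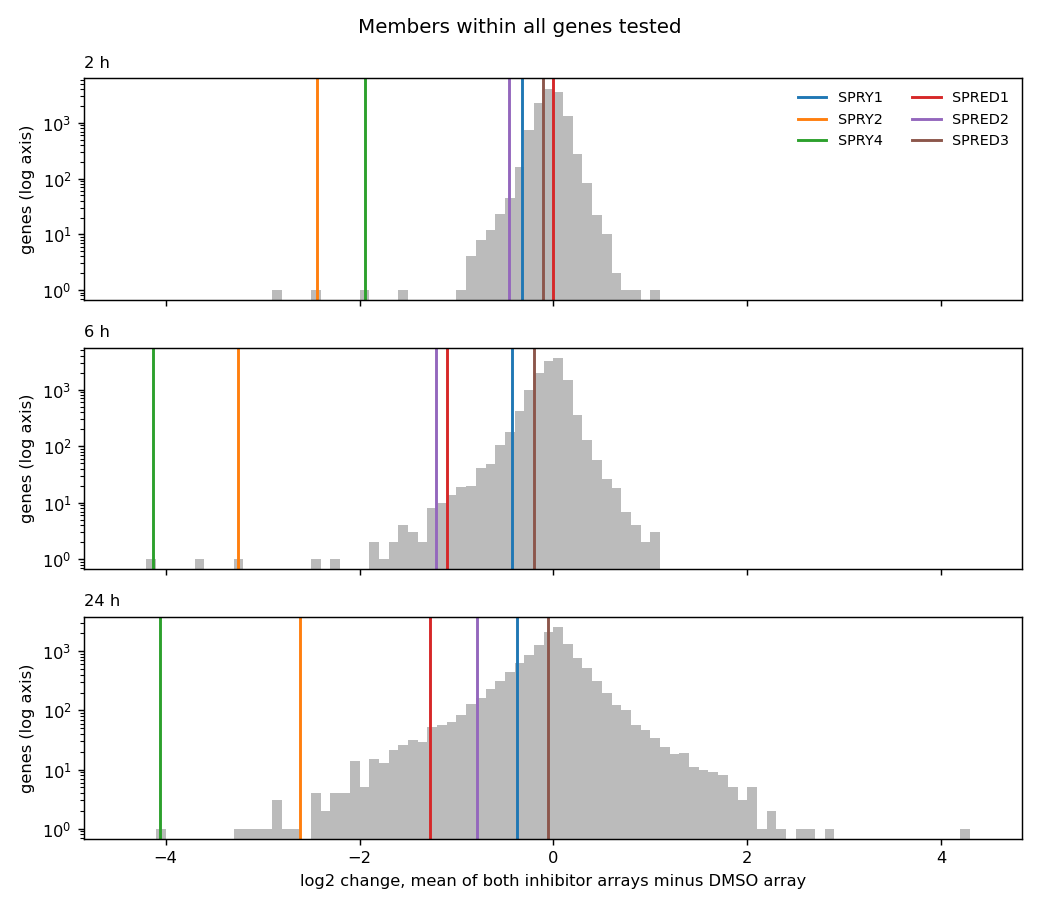
Number of genes (log axis) by mean log2 change with both inhibitors at 2, 6 and 24 h over the 12785 genes tested, with a coloured line at each of the 6 genes. SPRY4 is the lowest gene at 6 h and 24 h, while SPRED3 lies inside the bulk of genes at each time.

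Whether a change itself differed between neighbouring times was tested in the same fit, and 0 of 6 members passed. From 2 h to 6 h the further change was −2.19 for SPRY4 (SE 0.35, adjusted p = 0.0804), −1.09 for SPRED1 (SE 0.24, adjusted p = 0.205), −0.81 for SPRY2 (SE 0.72) and −0.755 for SPRED2 (SE 0.22). Over all genes, 0.0704% were called further down. By limma, 823 of 12785 genes had an unadjusted p below 0.05 there. Part of the SPRY4 value lies in the controls, since its DMSO level rose by 0.53 from 2 h to 6 h, while the level moved by −1.90 with PD184352 and by −1.42 with PLX4720. SPRY4, SPRED1 and SPRED2 passed without the PD184352 24 h array or without the PLX4720 24 h array. These are again the same fit for this comparison, with the same 29.9 prior degrees of freedom as above.

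From 6 h to 24 h the difference was 0.64 for SPRY2 (95% interval −0.95 to 2.23), 0.43 for SPRED2 (−0.06 to 0.92), 0.08 for SPRY4 (−0.70 to 0.86) and −0.18 for SPRED1 (−0.71 to 0.36). None passed by limma, where 2874 genes had an unadjusted p below 0.05, 5.07% of genes were called lower and 4.69% higher. Within each compound, the SPRY2 change from DMSO went from −2.84 at 6 h to −1.80 at 24 h with PLX4720. With PD184352 it went from −3.67 to −3.43. Without the PD184352 24 h array the SPRY2 value was 1.45, and without the PLX4720 24 h array −0.17. Each such value sets 1 compound at 24 h against the mean of both at 6 h, so it mixes in the gap between the compounds. SPRED2 was at 0.63 without the PD184352 24 h array, with the same mixing. These fits too had 29.9 prior degrees of freedom. For SPRY4 the sign turned, to −0.15 without the PD184352 6 h array and −0.29 without the PLX4720 24 h array. Averaged over the 3 times with time as a block, 1 of 6 members was called lower, SPRY2 at −2.77 (SE 0.25, adjusted p = 0.0264), against 0.133% of genes. That call was lost when 1 array was left out, in 5 of 9 cases: the 6 h array of any treatment, the 24 h array of PD184352 or the 2 h array of PLX4720 (adjusted p between 0.0544 and 0.181). Without the DMSO 2 h array 5 members passed, and without the DMSO 24 h array 4. In that fit SPRY4, whose change varied with time, was at −3.38 (SE 0.41, adjusted p = 0.0585).

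The compounds were given at different doses, and their levels were set side by side within each time. The gap, PD184352 minus PLX4720, was small at 2 h for each gene, between −0.16 (SPRED2) and 0.08 (SPRY1). SPRY2 stood at −0.10, −0.83 and −1.62 at 2, 6 and 24 h. SPRY4 stood at 0.02, −0.45 and −0.73. For SPRED1 the gap was −0.02, −0.10 and −0.54, and for SPRED2 −0.16, −0.21 and −0.41. In these 4 genes the PD184352 level was thus the lower one at 6 h and 24 h, and the gap was widest at 24 h. SPRY1 (0.08, −0.09 and 0.07) and SPRED3 (0.02, 0.00 and −0.08) had gaps within 0.10 at each time.

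Over the 3 times, in a fit of the 6 inhibitor arrays with time as a block, 0 of 6 members passed and 0% of all genes were called. By limma 555 of 12785 genes had an unadjusted p below 0.05. The mean gap was −0.85 for SPRY2 (95% interval −1.25 to −0.45, adjusted p = 0.387), −0.39 for SPRY4 (−0.62 to −0.15), −0.26 for SPRED2 (−0.41 to −0.11) and −0.22 for SPRED1 (−0.42 to −0.03). For SPRY1 it was 0.02 (−0.12 to 0.17) and for SPRED3 −0.02 (−0.16 to 0.12). SPRY2, SPRED1 and SPRED2 had the same sign at each of the 3 times. SPRY2 passed, at −0.47, when the PD184352 or the PLX4720 array of 24 h was left out, and both cases are the same fit. It had 1 residual degree of freedom, and limma used the same variance for all genes, so the spread of SPRY2 had no weight. With the dimmest 50% of genes left out, SPRY2 (adjusted p = 7.67e-10) and SPRY4 (adjusted p = 0.00388) passed, in a fit with 86.4 prior degrees of freedom in place of 10.7, where the error came mostly from all genes together. The doses differ, so a gap does not set one compound's potency against the other's.

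**Figure D4:**
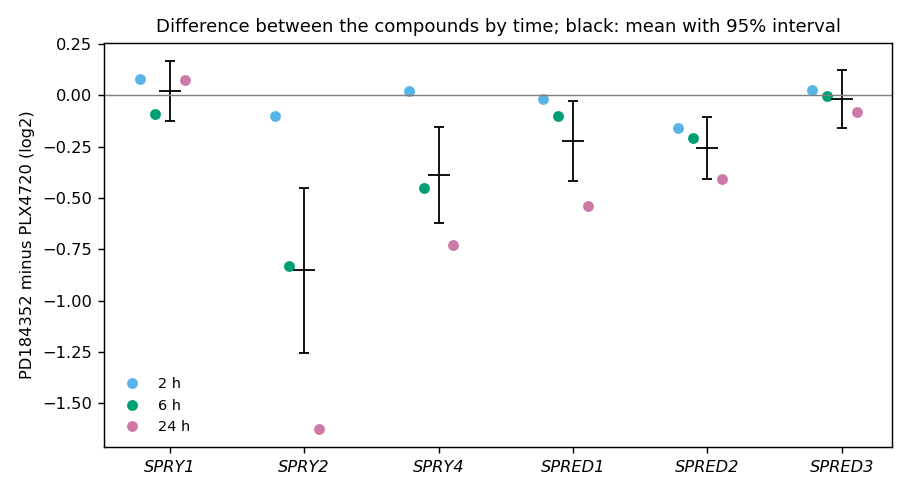
PD184352 minus PLX4720 (log2) for each gene, with 1 point for each of 2, 6 and 24 h and a black bar for the mean over times with its 95% interval. The SPRY2 points go down from −0.10 to −1.62, and those of SPRY1 and SPRED3 stay near 0.

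Other inhibitors of ERK and receptor signalling also fell in these arrays. Of 10 such genes tested, 2 fell at 2 h, 7 at 6 h and 7 at 24 h, and 0 rose. Over all genes 0.0704%, 2.74% and 19.2% were called lower at these times. Their median change was −0.72 at 6 h and −0.55 at 24 h. The ERK phosphatase DUSP6 was at −3.64 at 6 h (SE 0.56, adjusted p = 0.00621), close to the SPRY2 value. ERRFI1, an inhibitor of the EGF receptor, was at −2.48 (SE 0.12), the phosphatase DUSP4 at −1.02 (SE 0.09) and the RAS GTPase activator RASA2 at −0.56 (SE 0.10).

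Of 17 genes of proteins that Sprouty and SPRED work with, 11 were tested. Of these 0 were called at 2 h or 6 h and, at 24 h, 3 fell and 1 rose, when 19.2% of all genes were called lower and 12.5% higher. The partner count at 24 h is thus near that of all genes. The ubiquitin ligase NEDD4 fell by 0.93 (SE 0.12, adjusted p = 0.000225). The phosphatase PTPN11 fell by 0.35 (SE 0.10, adjusted p = 0.0232) and CBL was at −0.35 (SE 0.11, adjusted p = 0.0296). LZTR1, an adaptor for RAS degradation, rose by 0.27 (SE 0.09, adjusted p = 0.0480). NF1 was at 0.09 at 24 h (SE 0.10) and GRB2 at −0.23 (SE 0.10), and neither passed. In the chain from RAS to ERK, 0 of 6 genes tested (of 12 listed) were called at any of the 3 times, with medians of −0.03, 0.02 and 0.11.

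Upstream, of 12 receptor tyrosine kinase and ligand genes tested, 3 fell at 6 h, and 3 fell and 3 rose at 24 h, beside the 2.74% of all genes lower at 6 h and the 19.2% lower and 12.5% higher at 24 h. The ligand TGFA was at −2.22 at 6 h (SE 0.09) and −2.16 at 24 h. The growth factor VEGFA was at −0.97 at 24 h (SE 0.09) and the receptor IGF1R at −0.67 (SE 0.09). The receptor ERBB3 rose by 0.92 at 24 h (SE 0.13, adjusted p = 0.000358). Among 16 ERK-regulated transcription factor genes, 2 fell at 2 h, 7 at 6 h and 8 at 24 h, and 3 rose at 24 h, where the shares of all genes are those just given and 0.0704% lower at 2 h. The ETS factors ETV5, ETV4 and ETV1 were at −1.55, −0.66 and −1.28 at 6 h, and at −3.25, −3.12 and −2.43 at 24 h. These ETS genes were thus lowest at 24 h. JUN was at 2.29 at 24 h (SE 0.12). Over all genes the median change was −0.02 at 2 h and 6 h and −0.01 at 24 h.

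**Figure D5:**
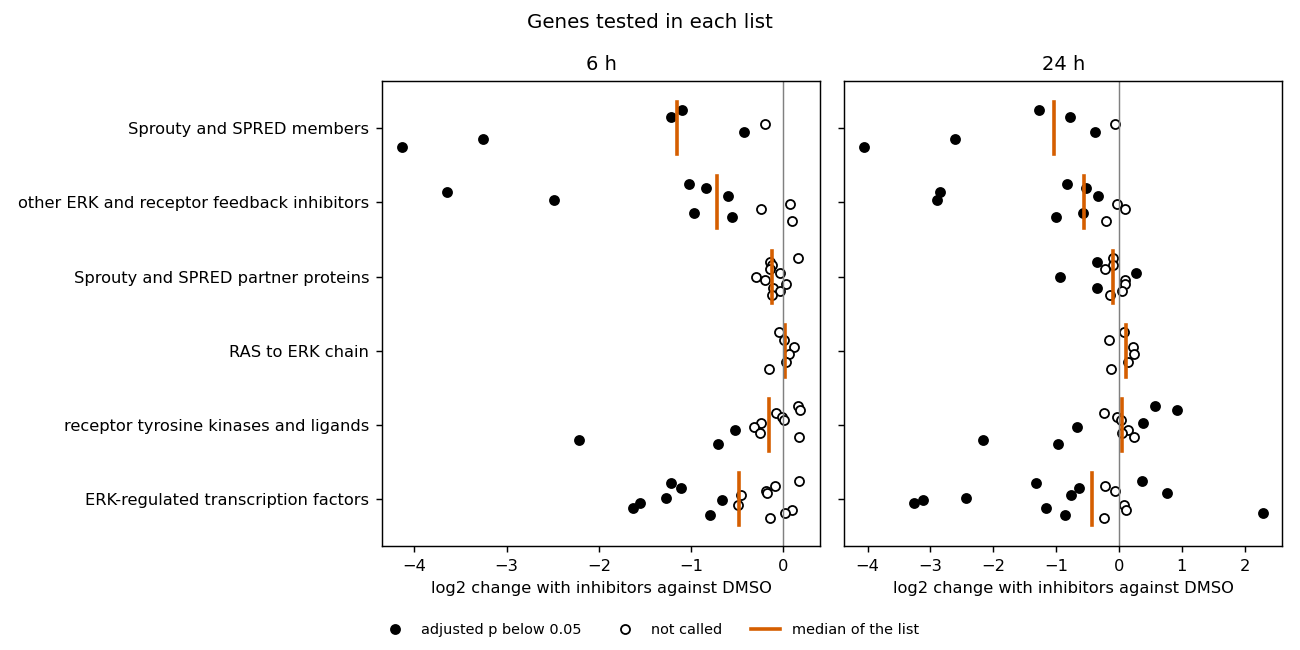
Mean log2 change with both inhibitors at 6 h and 24 h for the genes tested in each list, with filled points at an adjusted p below 0.05, open points otherwise and a bar at the list's median. The 6 Sprouty and SPRED genes have medians of −1.16 and −1.03, and the RAS to ERK chain has medians of 0.02 and 0.11.

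The genes with the most similar course over the 9 arrays were found by Pearson's r with each member that spanned at least 1 on the log2 scale. These 9 points share the treatments and the controls, so the values are a description. For SPRY2 they were DUSP6 (r = 0.99), the receptor EPHA2 (0.97) and the stress-response gene IER3 (0.96). DUSP6 spanned 4.05 and SPRY2 3.75. Closest to SPRY4 were NFKBIE, an inhibitor of NF-kappaB (0.99), the phosphate transporter SLC20A1 (0.98) and PXYLP1 (0.98). NFKBIE followed the same course at a span of 0.40, beside 4.42 for SPRY4. The nearest to SPRED1 were the chondroitin synthase CHSY1, the interferon receptor subunit IFNGR2 (both 0.98) and the transcription factor EBF3 (0.97). For SPRED2 they were ST3GAL5, which makes the ganglioside GM3 (0.97), the AP-1 gene FOSB (0.97) and IL1RAP (0.96).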

How the data were processed

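RNA of A375P cells was measured on a gene-level array, and the deposited table has 1 column for each of 9 treatment and time groups. The authors deposited linear intensity values. Per the submitters' processing notes, R 2.8.0, limma and RMA were used, with no role or order stated. Whether a column averages replicates, and the genome build, are not given in the sources used here. Loci and promoter windows are those of RefSeq in GRCh38.p14, and all 6 members had at least 1 window.

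From the intensities, log2(value + 1) was taken with no further normalization. Rows naming exactly 1 gene were kept (19380 of 35446), with the brightest row for each gene, and the dimmest 25% of genes were left out. Changes were tested in R 4.3.3 with limma (version 3.58.1). The p-values were adjusted by the Benjamini-Hochberg method over all 12785 genes and called at an adjusted p below 0.05. The fit by time had 3 residual degrees of freedom, the fit of 6 inhibitor arrays 2, and the fit with time as a block 4. The fits were checked on simulated data. The number of arrays limits the precision.

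The members and lists were chosen with earlier results of these data known. All members were named. From each other list up to 4 genes were named, by size of change at 6 h or 24 h among those called, plus the 3 most similar genes for each member that spanned at least 1. CIC, NF1, GRB2 and the promoter motifs lie outside that rule and were added after values were seen. Alternatives were other filters, pseudocounts of 0 and 16, quantile normalization, row means, trended and robust variance, a pooled DMSO control, and each array left out in turn.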

Additional observations from a re-analysis of the deposited data

How the results depend on the processing

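No paired analysis by replicate number was possible because each group has 1 array and the labels carry no replicate numbers; arrays were matched only by time, as a block in the fits of the compounds and of the mean over times. At 6 h and 24 h the count of 5 members called did not move by over 1.5 times in any of the alternatives. SPRY4, SPRED1 and SPRED2 passed at both times in all 16 alternatives that could be fitted for each. SPRY4 lay between −4.36 and −3.91 at 6 h and between −4.42 and −3.69 at 24 h. The 16 are not all separate checks. Leaving out a DMSO array of another time repeats the main fit by construction. Leaving out the PD184352 or the PLX4720 array of another time gives the same fit in both cases. SPRY1 at 6 h passed in 10 of 16 and was lost also with no filter (adjusted p = 0.0745) and after quantile normalization (adjusted p = 0.0586).

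The 1 member called at 2 h became 0 with no filter, after quantile normalization or with trended and robust variance, and 2 with the dimmest 50% left out or with all 3 DMSO arrays as 1 control. It lay between 0 and 3 when 1 array was left out. For the change from 2 h to 6 h the count of 0 became 2 with the dimmest 50% left out, and lay between 0 and 3 without 1 array. From 6 h to 24 h it was 0 to 2 without 1 array. Between the compounds it became 2 with the dimmest 50% left out and was 0 to 1 without 1 array. In the mean over times the count of 1 became 2 with the dimmest 50% left out, 0 after quantile normalization, and 0 to 5 without 1 array. Leaving out the dimmest 50% tests fewer genes; otherwise the cause was not tested.

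Of 636 recomputed member values 13 changed sign, 0 of them in a value called. SPRED1 at 2 h was 0.077 after quantile normalization and between −0.017 and 0.003 without 1 array. The change from 6 h to 24 h lay, without 1 array, between −0.002 and 0.089 for SPRY1, −0.172 and 1.450 for SPRY2, −0.287 and 0.442 for SPRY4, and −0.445 and 0.093 for SPRED1. Without an inhibitor array of 6 h or 24 h, this value sets 1 compound against the mean of both. The gap between compounds lay between −0.009 and 0.077 for SPRY1 and between −0.041 and 0.012 for SPRED3.

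Over all genes, the 11 called at 2 h ranged from 0 to 95 over the alternatives, the 419 at 6 h from 205 to 800, the 9 from 2 h to 6 h from 1 to 124, the 17 in the mean over times from 0 to 535 and the 0 between compounds from 0 to 25. From 6 h to 24 h, 1247 ranged from 832 to 1678. At 24 h the 4045 ranged from 3378 to 4948. Without the DMSO array of a time, changes at that time could not be fitted. With 1 array per group, a difference between single arrays has no test.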
